A study of Mus musculus with 2 samples.

Results

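The myeloid C-type lectin receptors are 8 listed mouse genes: Mgl2, Clec10a, Cd209a, Clec7a, Clec4d, Clec4e, Clec4n and Clec12a. They were listed by symbol, with earlier results of these data known, and 7 of the 8 have a row among the 32285 features of the deposited counts. Clec7a (Dectin-1), which the GENCODE annotation of GRCm38 types as a polymorphic pseudogene, is not analysed here. The cells were myeloid-derived suppressor cells (MDSCs) grown in culture. Marrow came from female C57BL/6 mice, 10 weeks old, and both conditions received GM-CSF (50 ng/mL) together with IL-6 (50 ng/mL) over 4 days. The DAB condition also received the BRAF inhibitor dabrafenib at 1.5 µM, and the DMSO condition its vehicle. Each condition gave 1 single-cell 5′ library, so no difference below has a replicate or a test. Intervals are exact, at 95%, and cover counting error only. How many mice contributed to a library is not stated in the sources used.

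C-type lectin receptors are transmembrane proteins whose calcium-type fold binds sugars or lipids on microbes and on damaged or altered host cells. In myeloid cells Clec4e (Mincle), Clec4d (MCL) and Clec4n (Dectin-2) signal through the FcRγ adaptor, Syk and CARD9, whereas Clec12a carries an inhibitory ITIM. Mgl2 and Clec10a bind galactose-type sugars and are widely used as markers of dendritic cells and alternatively activated macrophages, and Cd209a is a DC-SIGN homolog found on monocyte-derived dendritic cells.

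After filtering, the DMSO library held 9032 cells with a median of 7539.5 unique molecular identifiers (UMIs), and the DAB library held 10476 cells with a median of 9569.5. Both libraries held 152 of the same cell barcodes, 122 of them among the cells kept. Leaving them out moved no log2 ratio of a receptor over all cells by more than 0.00917, although that of Clec12a then read -0.498. The myeloid label was checked on Itgam, the gene of CD11b, which was detected in 43.8% (DMSO) and 49.6% (DAB) of cells thinned to 1500 UMIs each. Cd3e, a T-cell gene, was detected in 0.0582% and 0.0785%. Of 29 clusters, 15 carried a name from marker genes and 14, with 45.9% of DMSO and 41.2% of DAB cells, did not. The receptors and other C-type lectin genes were kept out of the clustering, so they did not define the clusters. The names were set anew from markers and may differ from the cell labels of the study. Where 1 library gave most of a cluster, the cluster may reflect the library and not a type of cell.

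The pair Mgl2 and Clec10a lie side by side on chromosome 11 of GRCm38 (the mm10 assembly), Mgl2 at chr11:70130329-70137550 and Clec10a at chr11:70156197-70170834, both on the plus strand and 18.6 kb apart. Their coding sequences were 91.1% identical over 922 aligned bases. The longest stretch without a difference, 183 bases in capitals, is shown because reads that fall inside it cannot be assigned to one gene of the pair by sequence.
Mgl2: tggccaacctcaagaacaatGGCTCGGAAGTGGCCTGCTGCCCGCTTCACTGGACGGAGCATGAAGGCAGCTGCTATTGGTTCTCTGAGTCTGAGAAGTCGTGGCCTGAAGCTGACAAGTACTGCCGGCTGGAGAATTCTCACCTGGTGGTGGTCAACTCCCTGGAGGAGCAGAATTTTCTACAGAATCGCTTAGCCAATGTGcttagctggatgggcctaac
Clec10a: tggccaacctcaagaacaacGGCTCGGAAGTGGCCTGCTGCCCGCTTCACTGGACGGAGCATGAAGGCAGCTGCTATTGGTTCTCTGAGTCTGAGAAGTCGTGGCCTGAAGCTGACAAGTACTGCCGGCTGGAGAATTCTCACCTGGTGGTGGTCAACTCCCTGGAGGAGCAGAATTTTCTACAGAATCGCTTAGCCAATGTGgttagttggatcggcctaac
The stretches span coding bases 530 to 752 of Mgl2-205 and 482 to 704 of Clec10a-209, with the flanking bases in lower case. Over all annotated transcripts, 12.2% of the 50-base windows of Mgl2 also occurred in Clec10a, and 8.49% of those of Clec10a in Mgl2. No other pair among the 8 genes shared a coding window of this length.

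Clec4n, Clec4d and Clec4e lie together on chromosome 6, Clec4n at chr6:123229843-123247021 and Clec4d at chr6:123262111-123275265 on the plus strand and Clec4e at chr6:123281789-123289870 on the minus strand. The gaps are 15.1 kb between Clec4n and Clec4d and 6.5 kb between Clec4d and Clec4e. Clec12a lies farther along the chromosome at chr6:129342691-129365303 on the plus strand, and Cd209a on chromosome 8 at chr8:3743397-3748984 on the minus strand. The 250 bases before the RefSeq start (GRCm38.p6) are shown for the 3 measured receptors in which a searched motif was found, in capitals, each read 5′ to 3′ on the strand of its gene.
Clec4d: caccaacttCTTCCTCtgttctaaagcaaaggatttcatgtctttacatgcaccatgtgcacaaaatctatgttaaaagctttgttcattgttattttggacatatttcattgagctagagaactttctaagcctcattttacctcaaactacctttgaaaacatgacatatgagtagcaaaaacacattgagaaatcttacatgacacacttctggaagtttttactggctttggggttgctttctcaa
Clec4e: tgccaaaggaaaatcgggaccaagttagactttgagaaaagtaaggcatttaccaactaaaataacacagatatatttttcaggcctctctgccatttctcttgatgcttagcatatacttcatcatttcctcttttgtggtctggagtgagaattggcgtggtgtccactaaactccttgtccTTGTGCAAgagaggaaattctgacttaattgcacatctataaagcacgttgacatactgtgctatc
Clec12a: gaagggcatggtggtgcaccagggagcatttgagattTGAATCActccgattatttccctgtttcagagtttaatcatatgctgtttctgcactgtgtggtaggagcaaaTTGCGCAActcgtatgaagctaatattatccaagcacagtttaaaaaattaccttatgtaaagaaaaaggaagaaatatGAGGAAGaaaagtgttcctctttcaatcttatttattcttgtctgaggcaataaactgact
They span chr6:123261857-123262106, chr6:123289872-123290121 and chr6:129349994-129350243. The window of Clec12a lies inside the span that GENCODE gives the gene. The motifs were the PU.1 site GAGGAAG, the C/EBP site TTGCNNAA, the C/EBP-ATF element TGATGNAA and the AP-1 site TGANTCA, each searched on both strands. Among 27025 promoters of the same length these occurred in 10.4%, 9.55%, 3.53% and 6.87%. Clec4d held a PU.1 site 241 bases before the start and Clec4e a C/EBP site 66 bases before it. Clec12a held a PU.1 site at 61, a C/EBP site at 140 and an AP-1 site at 213 bases before the start, with no overlap between them. Neither Mgl2 nor Cd209a held any of these letters in the window. Clec10a and Clec4n had no promoter in the source used and were not searched. A match is a string of letters and no evidence of binding.

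Over all cells, Mgl2, Clec10a and Clec12a were lower in the DAB library, while Clec4d, Clec4e and Clec4n lay within the limit of 0.5 on the log2 scale. Levels are summed UMIs scaled to CPM, which puts every library on the same total, and ratios are DAB over DMSO on the log2 scale. Mgl2 stood at 773 CPM (DMSO) and 373 CPM (DAB), and its log2 ratio was -1.05 (interval -1.07 to -1.04). Clec10a stood at 102 and 36.8 CPM, with a log2 ratio of -1.47 (-1.52 to -1.42). The DAB levels of this galactose-type pair were 0.482 and 0.362 of the DMSO levels. Clec12a stood at 84.9 and 59.9 CPM, and its log2 ratio of -0.50 (-0.55 to -0.46) was at the limit itself. Clec4d was at 128 and 161 CPM (0.33), Clec4e at 78.2 and 80.2 CPM (0.04) and Clec4n at 730 and 597 CPM (-0.29). Cd209a had 18 UMIs in DMSO and 33 in DAB, or 0.195 and 0.234 CPM, and a ratio whose interval ran from -0.61 to 1.18. In summed libraries, fewer cells of a type and less RNA per cell cannot be told apart.

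**Figure D1:**
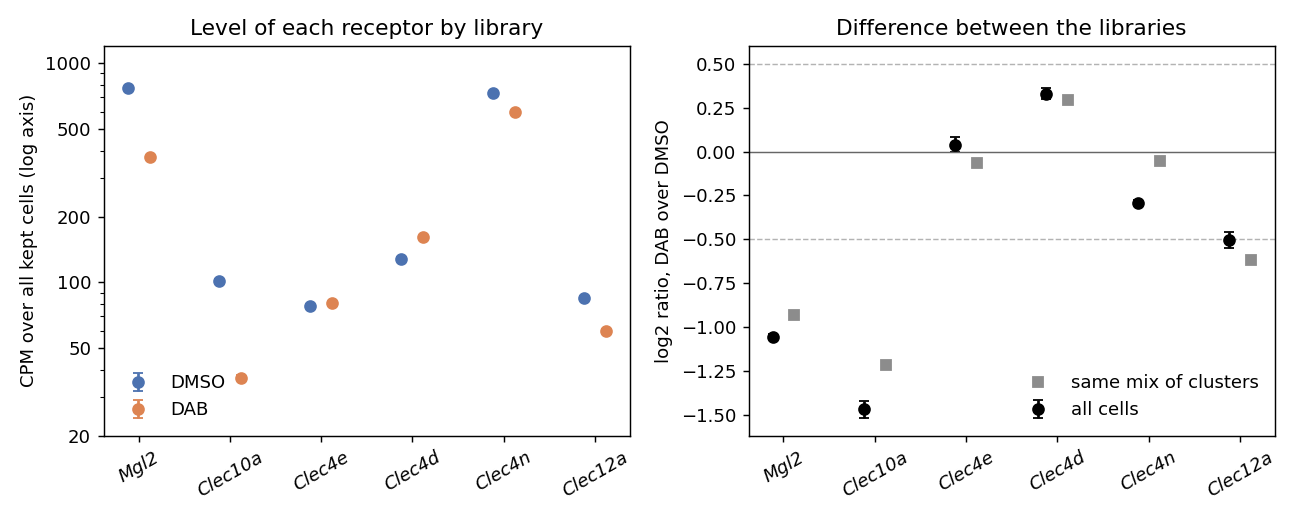
The left panel plots the CPM of 6 receptors over all kept cells (log axis) in DMSO and DAB with exact Poisson intervals, and the right panel the log2 ratio of DAB over DMSO with its counting interval (circles) and with both libraries weighted to the same mix of clusters (squares), dashed lines marking 0.5 in either direction. Mgl2 and Clec10a are at -0.93 or lower on both measures.

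A difference was read where the absolute log2 ratio reached 0.5 and its interval left out 0, for genes that reached 20 CPM in one library or the other. Of the 6 receptors at that level 3 were lower and 0 higher, with a median log2 ratio of -0.40. Over all 5889 genes tested, 11.4% were lower and 11.6% higher, with a median of 0.0079. With both libraries weighted to the same mix of 26 clusters, the log2 ratios were -0.93 for Mgl2, -1.21 for Clec10a and -0.62 for Clec12a. The same weighting gave 0.29 for Clec4d, -0.06 for Clec4e and -0.05 for Clec4n. The difference in Clec4n over all cells depended on how cells were weighted, since the mean of each cell's CPM gave 0.32 in place of -0.29. By that mean Clec4d reached 0.73, past the limit, and Clec12a -0.99.

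The share of cells with a UMI was compared after thinning. For Mgl2 it was 21.8% in DMSO and 15.03% in DAB, for Clec10a 5.84% and 2.63%, and for Clec12a 11.0% and 6.15%. These 3 shares were lower in DAB with intervals that did not meet. How many of all genes differ in this way, in either direction, was not counted. The shares are therefore not read as a result about the receptors as a set. Before thinning, the shares in the same order were 31.6% and 30.3% for Mgl2, 18.7% and 10.2% for Clec10a, and 33.2% and 29.2% for Clec12a. Clec4d had a UMI in 19.4% and 27.4% of thinned cells, Clec4e in 11.4% and 13.3% and Clec4n in 42.3% and 47.5%, all higher in DAB. Unthinned, these were 50.7% and 65.5%, 38.0% and 45.2%, and 61.0% and 71.9%. For Clec4n the share and the summed level pointed in opposite directions, so no order is read from it. B cell-like cells were taken to give the level of free RNA. This assumes that they do not express the receptors, which was not tested. Their thinned shares lay between 0% and 2.31% over the 6 receptors, at median depths of 3976 and 4828 UMIs, with CPM values from 0 to 9.82. A share of 0 of 129 or 0 of 173 such cells has an exact upper limit of 2.82% or 2.11%.

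Across the 7 named myeloid classes compared, the galactose-type pair was highest in a monocyte-like class. The FcRγ-coupled receptors Clec4d and Clec4e were highest in chemokine-high granulocyte-like cells. Ranks here and in the next paragraph leave out the unnamed clusters, with 45.9% of DMSO and 41.2% of DAB cells. The unnamed cluster led by stefin A genes had 1188 CPM of Mgl2 in DMSO, above the immature monocyte-like class. How many receptors shared a highest class between the libraries depended on the clustering settings. In DMSO, Mgl2 was at 1909 CPM in mature monocyte-like cells, which carry MHC class II genes such as H2-Aa and H2-Ab1. It was at 1086 CPM in immature monocyte-like cells (Mmp12, Lpl, F13a1), 993 in granulocyte progenitor-like cells (Elane, Mpo, Prtn3) and 312 in activated dendritic cell-like cells (Ccr7, Fscn1). In chemokine-high granulocyte-like (Cxcl2, Cxcl3, Ccl3), mature PMN-like (Csf3r, Mmp9) and intermediate granulocyte-like cells (Camp, Ltf, Ngp) Mgl2 was at 90.8, 88.1 and 12.9 CPM, and the intervals of the first 2 of these met. The order of these 7 classes was the same in DAB, where the intervals of the last 2 met. Mature monocyte-like cells were 4.69% of the DMSO cells and held 22.5% of its Mgl2 UMIs, against 5.98% of the cells and 34.0% of the UMIs in DAB. Their median depths were 19638 UMIs in DMSO and 29386 in DAB, beside 7539.5 and 9569.5 over all kept cells. A share of UMIs set against a share of cells therefore also holds depth.

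Clec10a followed a like order in DMSO, with 273 CPM in mature monocyte-like, 210 in progenitor-like and 136 in immature monocyte-like cells. In DAB its highest class was the immature monocyte-like one, at 131 CPM, above 86.1 in mature monocyte-like cells. Clec4d was at 383 CPM in chemokine-high granulocyte-like and 284 in mature PMN-like cells of DMSO, and at 487 and 419 in DAB. Clec4e was at 210 and 191 CPM in chemokine-high granulocyte-like cells of the 2 libraries, its highest class in both. Clec4n was highest in immature monocyte-like cells, at 1279 CPM in DMSO and 1323 in DAB, with 1137 and 1243 in chemokine-high granulocyte-like cells. Clec12a had another order, with 188 CPM in intermediate granulocyte-like, 150 in mature PMN-like and 148 in progenitor-like cells of DMSO, the last 2 with intervals that met. In DAB its order was progenitor-like (88.4 CPM), intermediate granulocyte-like (86.4), mature monocyte-like (46.7) and mature PMN-like cells (43.4), and the intervals met within the first pair and within the second. Of the few Cd209a UMIs, 13 of 18 in DMSO and 22 of 33 in DAB lay in mature monocyte-like cells.

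**Figure D2:**
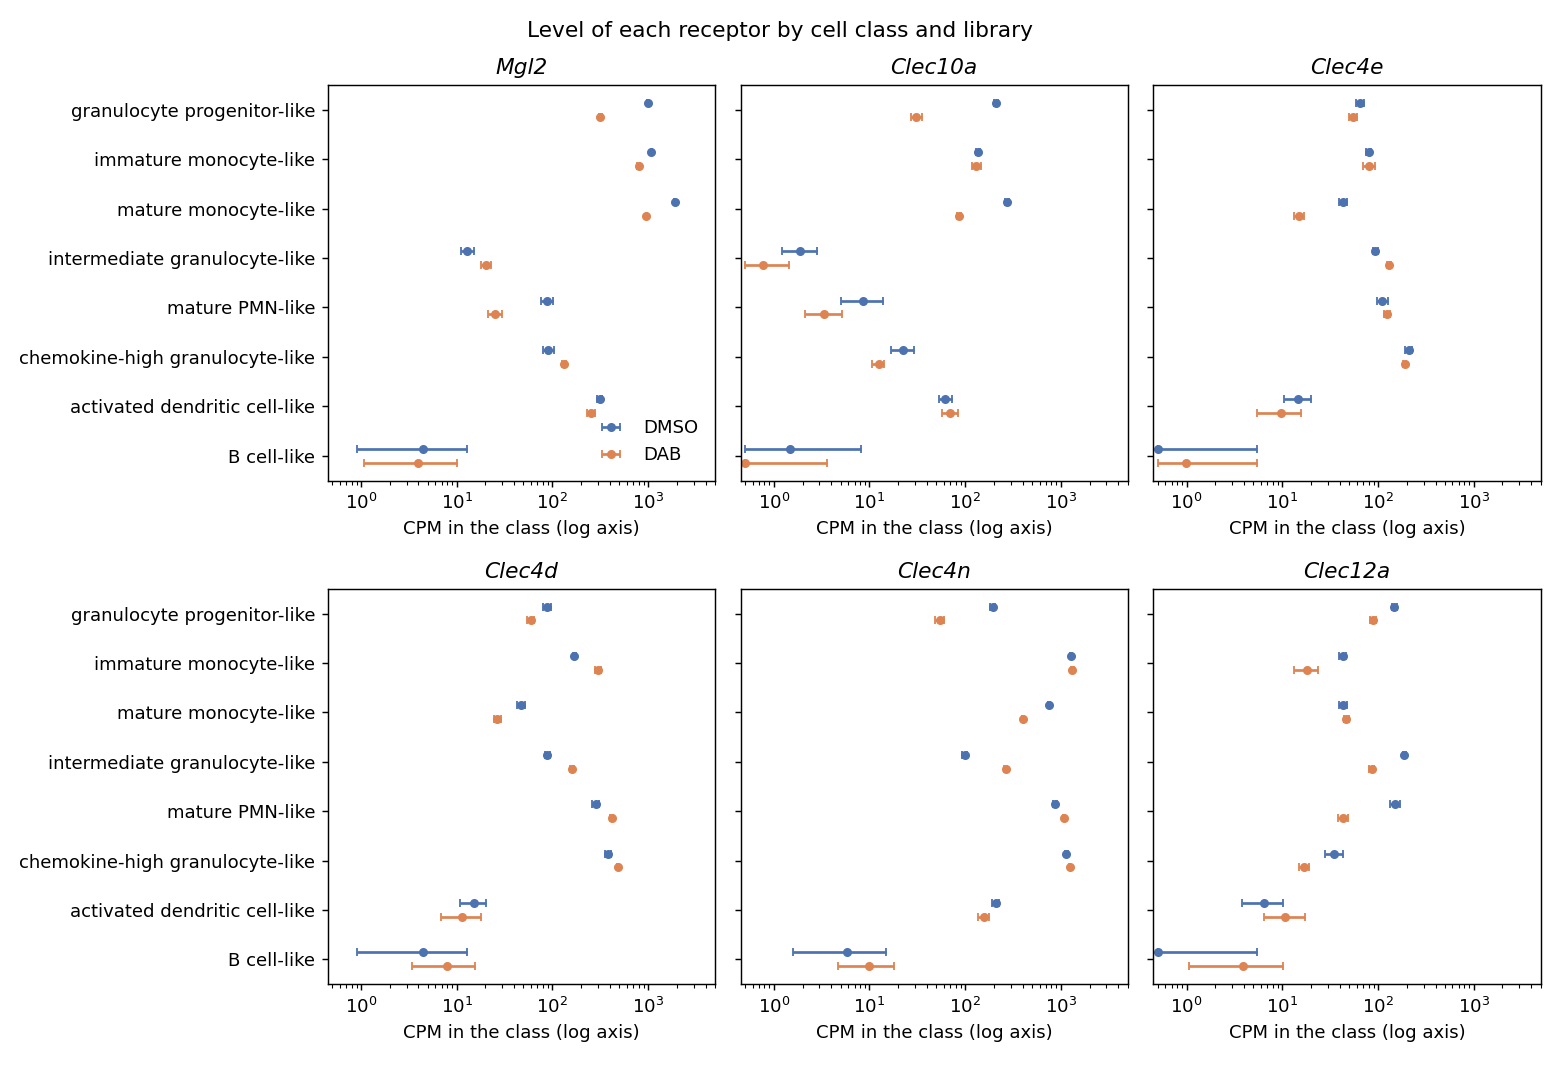
Each panel plots 1 receptor in CPM of the class (log axis) for 7 myeloid classes and the B cell-like cells, by library, with exact Poisson intervals and values below 0.5 drawn at 0.5. Mgl2 is above 300 in the progenitor-like and both monocyte-like classes of each library, and Clec4d above 280 in mature PMN-like and chemokine-high granulocyte-like cells.

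Mature monocyte-like cells had 5 of the 6 receptors lower in CPM in DAB. The class was compared in 424 DMSO and 626 DAB cells of a single cluster. Its median depth was 19638 UMIs in DMSO and 29386 in DAB, and CPM is relative to that total. In these cells Mgl2 had 16086 and 17896 UMIs, Clec4n 6336 and 7516 and Clec4d 400 and 496. Clec10a had 2302 and 1596 UMIs and Clec4e 365 and 279. The size of a CPM ratio is therefore not read as a difference in UMIs per cell. Clec10a differed by -1.67 on the log2 scale, Clec4e by -1.53 (43.3 against 15.05 CPM) and Mgl2 by -0.98, with 965 CPM in DAB. Clec4n differed by -0.89 (752 against 405 CPM) and Clec4d by -0.83 (47.5 against 26.8 CPM). Clec12a did not pass the limit, at 43.3 and 46.7 CPM. Without alignment of the libraries the ratio of Clec4d was -0.34, within the limit. Over all genes in this class 17.8% were lower and 16% higher, and the median log2 ratio of the receptors was -0.94 beside -0.0134 for all genes. After thinning, Mgl2 was detected in 74.5% (DMSO) and 54.0% (DAB) of the class (unthinned 88.9% and 81.2%), and cells in which it was detected held on average 3.65 and 2.75 of its UMIs. For Clec4n the thinned shares were 62.9% and 36.5% (unthinned 93.4% and 83.2%), and for Clec10a 24.1% and 8.65% (unthinned 63.9% and 34.3%). For Clec4d (4.96% and 4.49%) and Clec4e (4.73% and 1.60%) the intervals of the thinned shares met between the libraries. The share interval of Clec4e in DAB (0.77% to 2.93%) also met that of B cell-like DAB cells (0% to 2.11%). Its CPM interval there (13.3 to 16.9) did not meet theirs (0.0249 to 5.47). The 7 MHC class II and related markers that name this class were also lower in DAB, 7 of 7, with summed levels of 22610 and 19040 CPM and none at 0. The 8 macrophage markers summed to 597 CPM in DMSO and 177 in DAB, with 7 of 8 lower and none at 0. The 6 immature monocyte markers summed to 1542 and 754 CPM, 6 of 6 lower and none at 0. The B cell list summed to 2.85 and 1.40 CPM, with 4 of 7 markers at 0 in DMSO and 2 in DAB, and the T or NK cell list to 16.7 and 6.10 CPM with the same numbers at 0. Their part in the result was not tested.

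Immature monocyte-like cells numbered 875 in DMSO and 167 in DAB, so this class holds far fewer cells in the second library. The log2 ratios of Clec10a (-0.05), Clec4e (0.01) and Clec4n (0.05) lay within the limit. Mgl2 was at 1086 and 800 CPM, a log2 ratio of -0.44 that missed the limit. Clec4d was higher in DAB, 170 against 303 CPM (log2 ratio 0.83), and Clec12a lower, 42.6 against 18.0 CPM (-1.24). The thinned shares of Clec12a were 4.95% and 1.80%, beside 0% and 2.31% of B cell-like cells. Its CPM in DAB (13.3 to 23.9) lay above that of B cell-like cells (1.07 to 10.1). Of the genes tested in this class 16.6% were lower and 10% higher. All 6 values depended on the clusters. At a Leiden resolution of 0.5 the ratios were -0.98 for Mgl2, -0.97 for Clec10a, -0.64 for Clec4n, -0.52 for Clec4e, -0.25 for Clec4d and 0.052 for Clec12a. Without cell cycle regression they were -0.85 for Mgl2, -1.28 for Clec10a and 0.11 for Clec12a, and Clec4d was at 0.15.

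Granulocyte progenitor-like cells (360 and 284) had 5 of 6 receptors lower in CPM in DAB, where 17.8% of all genes were lower and 17.2% higher. The median depth of the class was 16323 UMIs in DMSO and 27688 in DAB, and CPM is relative to that total. Clec12a had 862 and 693 UMIs in these 360 and 284 cells, and Clec4d had 514 and 465. Their lower CPM is therefore not read as fewer UMIs per cell. The class joins a cluster led by Elane, Ctsg, Prtn3 and Mpo with one of 131 and 31 cells led by the metallothioneins Mt2 and Mt1, followed by Elane, Prtn3 and the heat shock genes Hspa1a and Hspa1b. The 10 leading genes of the first cluster also hold F13a1, a marker on the immature monocyte list. Whether its cells are committed to granulocytes was not tested. In the larger cluster Clec10a stood at 258 and 30.3 CPM (log2 ratio -3.09). Mgl2 was there at 1196 and 331 CPM (-1.86) and Clec4n at 162 and 39.8 CPM (-2.02). Clec12a (-0.72) and Clec4d (-0.52) were lower as well, and Clec4e (-0.19) was not past the limit. In the smaller cluster Mgl2 had 222 UMIs in DMSO and 1 in DAB, whereas Clec4d was higher at 0.76. In the class as a whole, Mgl2 was detected in 35.2% (DMSO) and 17.1% (DAB) of thinned cells, and in 48.3% and 35.9% before thinning. Of the 5 calls, those of Mgl2, Clec4n and Clec12a held in all 5 other settings in which the class had enough cells. That of Clec10a was lost without alignment (-0.40) and that of Clec4d without doublet removal (-0.48). At a resolution of 1.5, 224 DMSO and 330 DAB cells formed an unnamed cluster led by H2-Q10, Myl10 and Gem, and the cluster led by Elane and Mpo kept 55 and 57 cells.

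Granulocyte-like cells gave a different picture, with Clec12a lower in all 3 classes and Clec4d higher in 2 of them. In intermediate granulocyte-like cells (1907 and 1235) Clec12a was at 188 and 86.4 CPM (log2 ratio -1.12), while Clec4n was at 98.6 and 267 CPM (1.44) and Clec4d at 88.8 and 161 CPM (0.86). Of all genes in this class 14.4% were lower and 21% higher. Its 3 clusters contributed unequally to these values. The cluster led by Camp, Ltf and Ngp held 838 DMSO and 192 DAB cells and gave 1.14 for Clec4d, 0.92 for Clec4n and -0.76 for Clec12a. The cluster led by S100a9 and S100a8 gave 0.12, 1.02 and -0.22, and the one led by Retnlg and Ly6g gave -0.07, 0.09 and 0.17. Clec4n was therefore past the limit in 2 of the 3 clusters, and Clec4d and Clec12a in 1. The class values of Clec4n (1.44) and Clec12a (-1.12) lay beyond those of each cluster. The mix of the clusters differed between the libraries, so these class values also hold that mix. The clusters led by S100a9 and by Retnlg had 955 and 114 DMSO cells, and 626 and 417 DAB cells. Mgl2 was called higher in this class (12.9 against 20.4 CPM), with thinned shares of 0.834% and 1.39% (unthinned 2.25% and 7.94%). B cell-like cells had thinned shares of 0.775% and 1.73%, and 4.41 and 3.93 CPM. The CPM intervals of these classes met in DMSO but not in DAB (18.0 to 23.0 against 1.07 to 10.1). The highest Mgl2 ratio of any cluster compared, 3.19, was in the one led by Retnlg and Ly6g. How much of the Mgl2 signal is free RNA was not tested. Without doublet removal the class ratio of Mgl2 was -0.91.

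In mature PMN-like cells (571 and 1610), Clec12a was at 150 and 43.4 CPM (log2 ratio -1.79) and Clec4d at 284 and 419 CPM (0.56). Clec12a was lower in both clusters of the class, by -2.14 and -0.65. The share of thinned cells with a Clec12a UMI was 16.6% in DMSO and 5.22% in DAB, and that of Clec4d 31.8% and 43.4%, against 22.4% and 10.1%, and 52.9% and 66.0%, before thinning. Mgl2 was at 88.1 and 25.3 CPM (-1.80), with UMIs in 2.76% and 2.09% of thinned cells (unthinned 3.15% and 4.29%), beside 0.775% and 1.73% of B cell-like cells. The intervals of the thinned shares met (1.52% to 4.59% and 1.43% to 2.93%), and the unthinned share was higher in DAB. The 173 DMSO UMIs of Mgl2 lay in few cells, and the counting interval treats each UMI as independent. At a resolution of 0.5 the Mgl2 ratio was -0.43, within the limit. Clec4n (0.29) and Clec4e (0.17) did not pass the limit, though Clec4n reached 0.72 at a resolution of 1.5. Over all genes 8.37% were lower and 12.2% higher in this class.

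In chemokine-high granulocyte-like cells (370 and 1815), Clec12a was at 35.1 and 17.0 CPM (-1.05) and Clec10a at 22.3 and 12.5 CPM (-0.84, but -0.33 without alignment). The class joins 2 clusters. The one led by Cxcl3, Cxcl2 and Ccl2 held 197 DMSO and 1159 DAB cells. The one led by Ccl3, Atp6v0d2 and Mpeg1 held 173 and 656, with 3 of the 5 chemokine markers raised. The class values therefore also hold the mix of these clusters. Clec4d (0.35), Clec4n (0.13) and Clec4e (-0.14) were not past the limit in the class where Clec4d and Clec4e were highest. Among all genes 12.4% were lower and 8.54% higher. Mgl2 was called higher, 90.8 against 134 CPM (0.56), but this call turned with the clustering: the ratio was -0.62 without alignment of the libraries, -1.28 when genes moved in most clusters were left out and -0.025 without doublet removal. The thinned shares of Mgl2 were 3.51% and 6.21% (unthinned 9.19% and 15.2%).

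Activated dendritic cell-like cells (168 and 102) had 3 receptors at 20 CPM, and none passed the limit, beside 16.3% of genes lower and 12.2% higher. Mgl2 was at 312 and 253 CPM (log2 ratio -0.31, interval -0.48 to -0.14), Clec4n at 208 and 156 CPM (-0.42) and Clec10a at 62.3 and 70.2 CPM (0.17). These values moved with the settings, that of Clec4n from -0.95 without alignment to 0.24 without doublet removal, and that of Mgl2 to -0.79 without alignment. Basophil or mast cell-like cells numbered only 69 and 99. Clec4e had 9 and 67 UMIs in them, 20.5 and 80.6 CPM. Summed over the 7 myeloid classes, 37 pairs of a receptor and a class reached 20 CPM, of which 16 were lower in DAB, 6 higher and 15 neither. Over all genes, 14.8% of such pairs were lower and 13.8% higher. Clec4e in mature monocyte-like and Clec12a in immature monocyte-like cells reached 20 CPM in DMSO only. So did Clec12a and Clec10a in chemokine-high granulocyte-like cells, and Mgl2 in intermediate granulocyte-like cells reached it in DAB only. Such pairs entered the count through the library where they were higher, as did those of all genes. The counts describe CPM and not UMIs per cell.

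**Figure D3:**
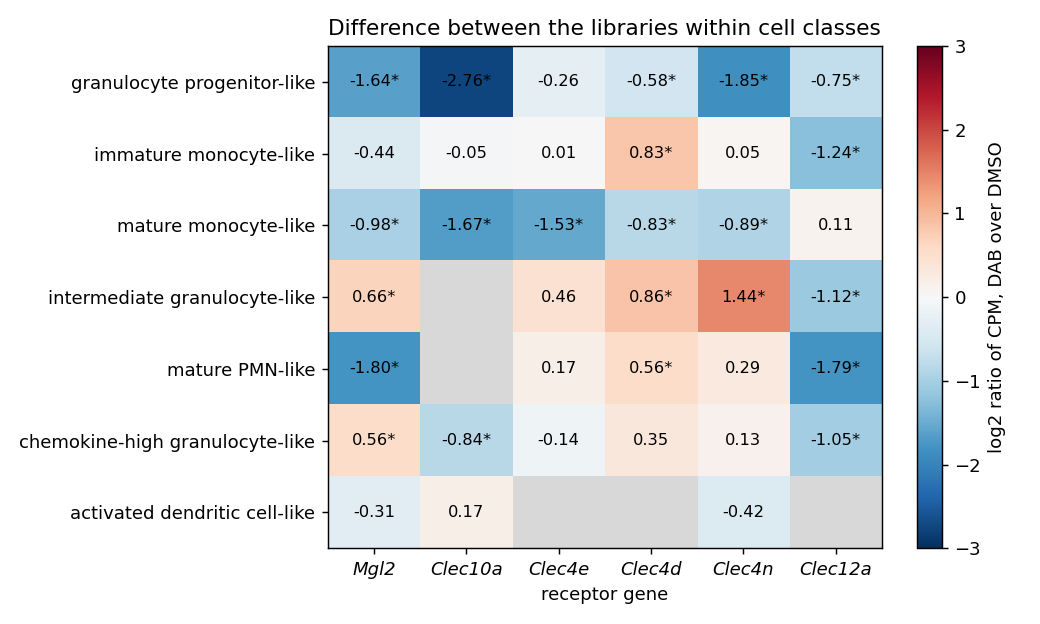
The grid gives the log2 ratio of DAB over DMSO for 6 receptors (columns) in 7 myeloid cell classes (rows), blue for lower and red for higher in DAB, with an asterisk where the ratio reached 0.5 and its counting interval left out 0, and grey where both libraries were under 20 CPM. Mature monocyte-like and granulocyte progenitor-like cells have 5 of 6 receptors lower in CPM each. Clec12a is lower in 5 of the 6 classes in which it reached 20 CPM.

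**Figure D4:**
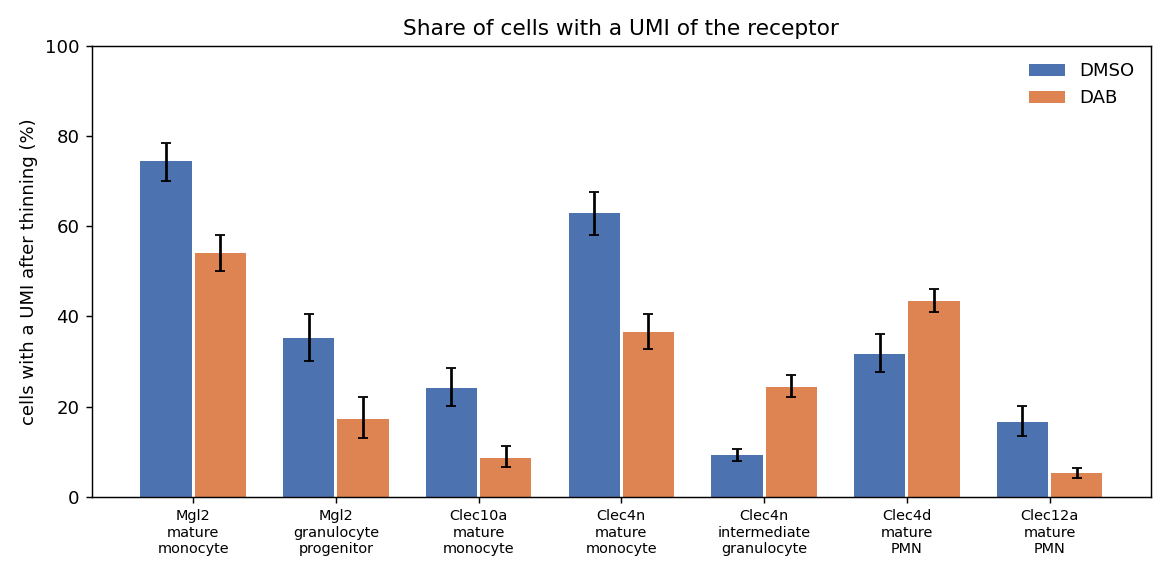
Bars give the percent of cells with at least 1 UMI of a receptor after thinning every cell to 1500 UMIs, for 7 pairs of a receptor and a class chosen as examples after their values were seen, with exact binomial intervals. Clec4n is detected in 62.9% (DMSO) and 36.5% (DAB) of mature monocyte-like cells, and in 9.23% and 24.4% of intermediate granulocyte-like cells.

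Unnamed clusters held much of the signal, and values by cluster were set beside those by class. Of 25 clusters with at least 30 cells in each library, Mgl2 reached 20 CPM in 21 and was lower in 12, higher in 1 and neither in 8. Over all genes, 13.6% of the pairs of a gene and a cluster were lower and 12.9% higher. Clec10a was lower in 11 of 16 clusters and higher in 1, the metallothionein cluster, where it had 26 and 14 UMIs. Clec12a was lower in 11 of 23 and higher in 1, and Clec4e was lower in 3 of 23 and higher in 2. Clec4n was lower in 5 and higher in 2 of 23, and Clec4d was lower in 4 and higher in 6 of 22. Among the unnamed clusters, the one led by stefin A genes such as Stfa1 and Stfa2 (207 and 1004 cells) had 1188 and 256 CPM of Mgl2 and 177 and 22.7 CPM of Clec10a. The mitotic cluster led by Ube2c, Birc5 and Top2a (332 and 535 cells) had 1317 and 451 CPM of Mgl2 and 142 and 19.7 CPM of Clec10a. The log2 ratio of Clec4d was -0.05 in the first of these clusters and 0.05 in the second.

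Mgl2 and Clec10a had the most similar pattern of any 2 receptors across 26 clusters of at least 50 cells, though not the same level. The Pearson r between their log2(CPM + 10) values was 0.96. This r is a description over clusters that share libraries, and the pair also shares sequence. The next pairs were Clec4d and Clec4e (0.82) and Clec4d and Clec4n (0.77), the neighbours on chromosome 6. The highest r of Clec12a with another receptor was 0.48, with Clec4e. The number of Clec10a UMIs per 100 Mgl2 UMIs was 13.2 in DMSO and 9.89 in DAB over all cells. It was 14.3 and 8.92 in mature monocyte-like, 21.2 and 9.72 in progenitor-like and 12.5 and 16.4 in immature monocyte-like cells. In thinned cells, 16.7% of DMSO cells with Mgl2 also had a Clec10a UMI, against 2.81% of the cells without Mgl2, and the shares in DAB were 8.49% and 1.59%. Within mature monocyte-like cells of DMSO the first share was the lower one, 20% against 36.1%. In the same class of DAB it was the higher one, 10.1% against 6.97%. Of Clec4d-positive cells, 54.1% in DMSO and 63.3% in DAB had Clec4n, against 39.4% and 41.5% of the others. These shares pool all classes, and the gap varied within them. In immature monocyte-like cells it was 77.1% against 74.3% in DMSO and 72.6% against 74.3% in DAB. In intermediate granulocyte-like cells it was 19.2% against 7.54% in DMSO and 34.05% against 21.6% in DAB.

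**Figure D5:**
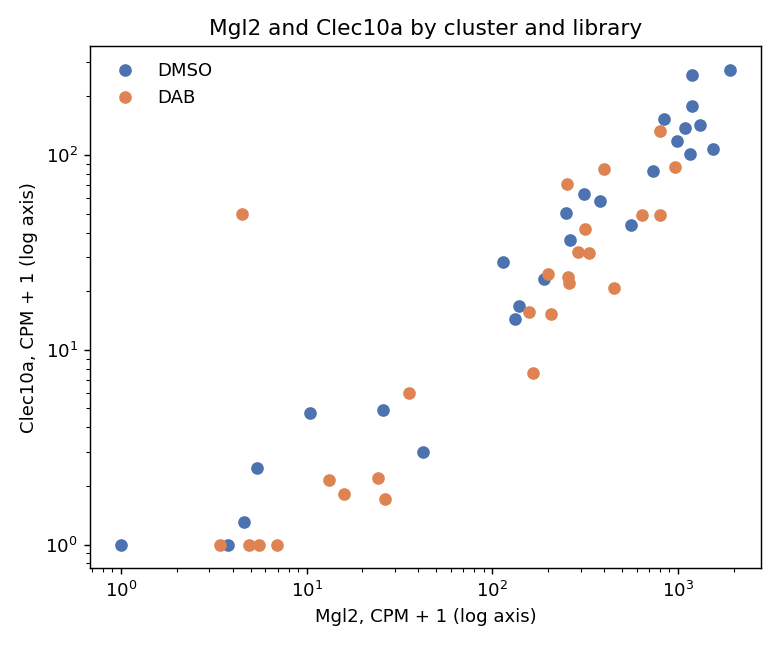
Each point is 1 cluster of at least 30 cells in 1 library, with Mgl2 on the horizontal and Clec10a on the vertical axis, both as CPM + 1 on log axes. The points lie along a common diagonal, and the DAB point away from it at the left is the metallothionein cluster with 31 cells.

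The genes most alike to each receptor across the 26 clusters were taken from the 8981 genes that reached 20 CPM in any of them. For Mgl2 they were Cysltr1, a cysteinyl leukotriene receptor (r = 0.92), Olfm1 (0.91) and the clathrin adaptor subunit Ap1b1 (0.90). For Clec10a they were Olfm1 (0.91), Tnip3 (0.90) and the lysine methyltransferase Smyd2 (0.90). The vacuolar ATPase subunit Atp6v1e1 (0.91), the lysosomal protein Cd68 (0.90) and the protease inhibitor Cstb (0.90) were nearest to Clec4d. Clec4e lay closest to the transcription factors Cebpb (0.92) and Atf5 (0.92) and the lipid droplet protein Plin2 (0.91). Clec4n lay closest to the lipid receptor Trem2 (0.95), Cd68 (0.91) and Anxa4 (0.91). For Clec12a the values were lower, with Paqr7 (0.85), Bin2 (0.84) and the short-chain fatty acid receptor Ffar2 (0.83). For Cd209a, with 51 UMIs in all, they were Aif1 (0.74), Tppp3 (0.73) and Ppfia4 (0.71).

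Of 38 other C-type lectin genes on a list, 10 reached 20 CPM, and over all cells 5 were lower, 2 higher and 3 neither, with a median log2 ratio of -0.41, beside 11.4% lower and 11.6% higher over all genes. Asgr2, a subunit of the asialoglycoprotein receptor and a relative of the galactose-type pair, was at 126.5 and 38.5 CPM (-1.72). Cd302 was at 29.3 and 9.43 CPM (-1.64), Olr1, a receptor for oxidised LDL, at 50.2 and 23.97 CPM (-1.07) and Clec4a2 at 83.1 and 51.7 CPM (-0.68). Higher in DAB were Cd69, an early activation antigen (34.8 and 87.7 CPM, 1.34), and Clec5a, which signals through DAP12 (106 and 181 CPM, 0.77). The signalling list of 27 genes had 22 at that level, of which 3 were lower and 0 higher, with a median of 0.0206, and 11.4% of all genes were lower. The lower ones included Traf6 (47.65 and 24.05 CPM, -0.99) and the paracaspase Malt1 (152 and 92.7 CPM, -0.71). Both lists were drawn up with earlier results of these data known.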

How the data were processed

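The deposited values are raw UMI counts per gene and barcode, which the authors made with Cell Ranger 7.0.0 on mm10. Their notes also list Seurat 4.3.0 and R 4.1.2. The DMSO library held 9855 barcodes with 106792967 UMIs and the DAB library 11631 with 165506902, and every barcode had at least 500 UMIs. The submitters' cell labels were not used here.

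Barcodes over 10% mitochondrial UMIs were left out (55 and 89), and a limit of 4 median absolute deviations removed 0. The highest doublet scores, against simulated doublets, were removed at 0.8% per 1000 cells (768 and 1066), and 55.2% of 400 planted doublets were called. Pearson residuals of 3000 genes, without C-type lectin genes and with cell cycle and mitochondrial share regressed out, gave 40 components, which were aligned by mutual nearest neighbours (20) and clustered by Leiden (0.9). A cluster was named from 17 marker lists when at least 3 markers, and 50% or more of its list, had a log2 fold of at least 1 over the other clusters, and its own markers outnumbered others among the 10 leading genes. The list with the highest mean fold was the one tried, and granulocyte names other than progenitor also required S100a8 or Csf3r to be raised. This rule was adjusted once the clusters were known. The lists for conventional and plasmacytoid dendritic cells, macrophages, T or NK cells, erythroid cells, early progenitors and platelets named no cluster, and the other 10 lists named 1 class each. Python 3.11.15, scipy 1.17.1, igraph 0.11.9 and leidenalg 0.10.2 were used.

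Summed counts were compared as CPM without a test. Ratios carry an exact conditional binomial interval, levels a Poisson and shares a Clopper-Pearson interval. Classes needed 100 cells in each library. Thinning to 1500 UMIs left out 436 DMSO and 289 DAB cells. Named were the receptors, the 3 genes most alike to each, class markers, genes that lead a cluster, and list genes past the limit (at most 6 per list), of which 1 is not reported here. Cd3e, the leading genes of unnamed clusters and the motifs were chosen after the files were seen. The ratio step was tested on simulated counts. The receptors and lists were chosen with earlier results of these data known. Promoters of 6 of the 8 genes, all but Clec10a and Clec4n, were matched by symbol to RefSeq. Alternatives were no filter, no doublet removal, other scaling, fold, minimum and thinning, and 6 other clusterings.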

Additional observations from a re-analysis of the deposited data

Results flagged for a closer look

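Some receptors passed the limit in opposite directions in different cell classes. The difference between classes was not tested, since each condition has 1 library. The log2 ratio of Clec4n was -0.89 in mature monocyte-like and -1.85 in granulocyte progenitor-like cells, but 1.44 in intermediate granulocyte-like cells. The value of 1.44 also holds the mix of the clusters in that class, and the highest Clec4n ratio in any cluster was 1.02. The log2 ratio of Clec4d was -0.83 in mature monocyte-like and -0.58 in granulocyte progenitor-like cells. It was 0.83 in immature monocyte-like, 0.86 in intermediate granulocyte-like and 0.56 in mature PMN-like cells. Mgl2 was lower in granulocyte progenitor-like (-1.64) and mature monocyte-like cells (-0.98). It was also lower in CPM in mature PMN-like cells (-1.80). There 2.76% of thinned DMSO and 2.09% of thinned DAB cells had a UMI, with intervals that met. Of B cell-like DAB cells, 1.73% had one. At a resolution of 0.5 the ratio in mature PMN-like cells was -0.43, within the limit. The Mgl2 value in intermediate granulocyte-like cells (0.66) rests on low levels, 12.9 and 20.4 CPM, and was -0.91 without doublet removal. That in chemokine-high granulocyte-like cells (0.56) changed sign in 3 of 9 other settings. The value of Clec4d in immature monocyte-like cells also changed sign, in 1 of 8.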

How the results depend on the processing

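No paired analysis was possible because each condition has 1 library. Of the receptors, 3 were lower over all cells, a count that was 2 without the filter, without doublet removal and under median-of-ratios scaling, which moved all ratios by 0.0081: Clec12a then lay at -0.496, -0.486 and -0.496. It was also 2 without the barcodes held by both libraries, a setting chosen after seeing the data. With the mean over cells 1 receptor was higher (Clec4d, 0.73) and 3 other lectin genes were lower. At a log2 limit of 1, the counts were 3 other lectin genes lower and 1 higher, 0 signalling genes lower, and 10 lower and 1 higher pairs of a receptor and a class in place of 16 and 6. Without alignment 3 pairs were higher. Shares over all genes were counted in the main setting only. The counts in other settings are therefore read as dependence on the processing and not as results about the receptors. The receptors with the same highest class in DAB were 3 of 6 at Leiden resolution 0.5 and without cell cycle regression. Among ratios past the limit, those that changed sign were of Mgl2 in intermediate granulocyte-like cells (-0.91 without doublet removal) and in chemokine-high granulocyte-like cells (-0.025 without doublet removal, -0.62 without alignment, -1.28 without treatment-moved genes), of Clec4d in immature monocyte-like cells (-0.25 at resolution 0.5) and of Clec12a in the same cells (0.052 at resolution 0.5, 0.11 without cell cycle regression). Of 22 ratios within a class past the limit, 13 kept the call in every other setting that gave a value and 9 lost it in at least 1. Of the 15 within the limit, 9 passed it in at least 1 setting and 7 changed sign, and over all cells Clec4n changed sign with the mean over cells (0.32). Apart from the change of limit, whose construction lowers counts, the cause was not tested. Over the other settings the ratio of Mgl2 over all cells stayed between -1.06 and -0.96 and that of Clec10a between -1.47 and -1.26. Over the other settings in mature monocyte-like cells they ranged from -1.09 to -0.71 and from -1.99 to -1.29. In intermediate granulocyte-like cells Clec4n ranged from 0.85 to 2.15 and Clec12a from -1.38 to -1.03, as class values that also hold the mix of clusters. Depth limits Cd209a, with 18 and 33 UMIs.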
